A study of Mus musculus with 36 samples.

Results

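The genes carried by mitochondrial DNA were followed in lung macrophages and monocytes of mice that breathed filtered air (FA) or concentrated fine particulate matter (PM2.5). They were taken from the deposited expression table as every gene whose symbol starts with mt-, and were split into protein-coding, rRNA and tRNA genes. The mouse annotation (GENCODE M21) places 37 genes on the mitochondrial chromosome, which are 13 protein-coding genes, 2 rRNA genes and 22 tRNA genes. The table listed 5 of them among 27562 genes. These were the tRNA genes mt-Ti, mt-Tq and mt-Tl2 and the protein-coding genes mt-Atp6 and mt-Nd6. The remaining 32, among them both rRNA genes, were not analysed here.

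Young adult male C57BL/6J mice (CD45.2) were irradiated with the chest shielded, given busulfan and transplanted with bone marrow of CD45.1 B6.SJL-Ptprc a Pepc b/BoyJ donors, and this preparation was common to every group. The mice were then exposed to FA or to PM2.5 in VACES chambers for 4 or 32 weeks. RNA was sequenced from sorted alveolar macrophages (AΦ, CD64+ CD11c hi CD11b lo) and monocytes (Ly6G- MHC II- CD64 lo CD11b hi), with libraries of 3 mice in each of 12 groups and 36 libraries in all. The methods describe 3 mice chosen per exposure and time, so macrophage and monocyte libraries, or those of both origins, may come from the same animals. The labels do not say which libraries share an animal, and the contrasts of cell types and origins treat them as independent. Host CD45.2 macrophages were named tissue-resident (TR-AΦ) and donor CD45.1 macrophages bone marrow-derived (BM-AΦ). TR-AΦ and CD45.2 monocytes were sequenced at 4 and 32 weeks, and BM-AΦ and CD45.1 monocytes at 32 weeks. The origin of the 32-week monocytes rests on reading their number, 1 or 2, by the key given for the macrophages. Chest shielding leaves host cells in the lung and host marrow under the shield, so cells of both origins could coexist in an animal.

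Mitochondrial DNA is transcribed from both strands as long precursors, and the tRNA genes lie between the other genes like punctuation and are cut out to release them. The tRNAs serve only the mitochondrial ribosome, which makes the core subunits of the respiratory chain, while most subunits and every protein of mitochondrial transcription come from nuclear genes. Alveolar macrophages depend on mitochondrial respiration for maintenance and for handling surfactant lipid, which is why the compartment is of interest in this cell.

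The sequences of the 3 listed tRNA genes are shown because all of the abundant mitochondrial signal in the table came from them. They are RNA-sense DNA of the GRCm38 (mm10) mitochondrial chromosome, 5′ to 3′, in lower case, with capitals for bases that another annotated gene also covers.
mt-Ti: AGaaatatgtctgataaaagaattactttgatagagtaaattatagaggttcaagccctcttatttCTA
mt-Tq: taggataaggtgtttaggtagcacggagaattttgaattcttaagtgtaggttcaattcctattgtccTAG
mt-Tl2: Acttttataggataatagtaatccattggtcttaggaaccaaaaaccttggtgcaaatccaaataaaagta

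mt-Ti (ENSMUSG00000064342.1), the isoleucine tRNA gene, is 69 bases on the plus strand at chrM:3706-3774. Its first 2 bases lie in mt-Nd1 and its last 3 lie opposite mt-Tq. mt-Tq (ENSMUSG00000064343.1), the glutamine tRNA gene, is 71 bases on the minus strand at chrM:3772-3842. mt-Tl2 (ENSMUSG00000064366.1), a leucine tRNA gene, is 71 bases on the plus strand at chrM:11671-11741 and shares 1 base with mt-Ts2.

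Both listed protein-coding genes also share bases with their neighbours. mt-Atp6 (ENSMUSG00000064357.1) codes for the subunit of ATP synthase that forms the proton path and covers 681 bases at chrM:7927-8607, plus strand. Its start overlaps the end of mt-Atp8 by 43 bases, in capitals below, and its last base is the first base of mt-Co3, the capital in the next line. mt-Nd6 (ENSMUSG00000064368.1) codes for a core subunit of complex I and covers 519 bases at chrM:13552-14070 on the minus strand. It is the protein-coding gene of that strand, and its last 14 bases, in capitals, lie opposite the end of mt-Nd5.
mt-Atp8/mt-Atp6, chrM:7915-7981, plus strand: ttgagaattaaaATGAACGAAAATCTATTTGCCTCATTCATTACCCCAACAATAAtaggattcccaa
mt-Atp6/mt-Co3, chrM:8595-8619, plus strand: tgataatacataAtgacccaccaaa
mt-Nd6 end, chrM:13552-13577, minus strand: ttattatcgagaTTACTCGAGATTAA

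The overlap was a property that the choice by symbol had not used. Of the 37 annotated genes, 16 share at least 1 base with a neighbour, and the 5 listed genes were all among these 16. None of the 21 genes that overlap no neighbour was listed. In the table each listed gene carried the coordinates of its whole overlapping cluster. mt-Ti and mt-Tq were both given the interval from 2751 to 3842, which also holds mt-Nd1. mt-Tl2 was given 11613 to 11741 with mt-Ts2, mt-Atp6 was given 7766 to 9390 with mt-Atp8 and mt-Co3, and mt-Nd6 was given 11742 to 14070 with mt-Nd5. Whether the counting used strand was not stated in the sources used here. Reads of mt-Ti and mt-Tq at their 3 shared bases, and of mt-Nd6 and mt-Nd5 at their 14, could therefore not be told apart. Strand separates no bases shared on the same strand. These are 43 of mt-Atp8 and mt-Atp6, 2 of mt-Nd1 and mt-Ti, 1 of mt-Ts2 and mt-Tl2, and 1 of mt-Atp6 and mt-Co3.

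**Figure D1:**
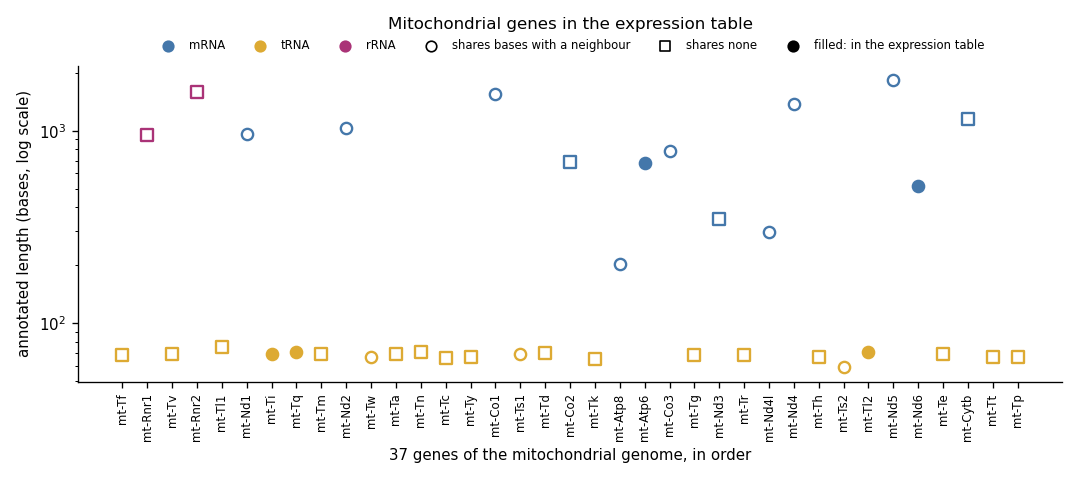
Annotated length (log scale) of the 37 annotated mitochondrial genes in their order along the chromosome. The 5 genes listed in the expression table are filled and the genes not listed are open. All 5 listed genes lie among the 16 that overlap a neighbour.

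The values are FPKM, fragments scaled by transcript length and by the mapped fragments of the library, and read depth was not among the deposited values. The FPKM of a library summed to 1839580 to 3339020, with 15171 to 18244 genes above 0. Genes of at most 300 bases took 74.6 to 83.7% of that sum, and the 10 highest genes took 24.7 to 33.8%. The 10 alveolar macrophage markers summed to 5378 to 12068 FPKM in the 18 macrophage libraries and to 132 to 1457 in the 18 monocyte libraries. The 10 monocyte markers summed to 97.9 to 581 and to 1945 to 5862. No library stood on the side of the other cell type, and no libraries were identical.

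mt-Ti was the most abundant of the listed mitochondrial genes and 1 of the most abundant genes of the table. It was above 0 in 36 of 36 libraries with a mean of 31018 FPKM, took 0.407 to 2.52% of the FPKM sum of a library, and ranked between 5 and 46 among all genes. Among 135 listed genes of 59 to 80 bases, mostly small nucleolar RNAs and microRNAs, its mean ranked 3, while mt-Tq ranked 36 and mt-Tl2 ranked 48. FPKM divides by length, and genes this short reach high values from few reads. Their smallest value above 0 had a median of 921 FPKM, and only 11 of the 135 were above 0 in all 36 libraries.

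In TR-AΦ at 4 weeks, mt-Ti was at 38071, 31450 and 35301 FPKM in the FA mice and at 10602, 56143 and 27853 in the PM2.5 mice. At 32 weeks the TR-AΦ values were 42336, 30735 and 38288 under FA and 32305, 32601 and 52107 under PM2.5. The lowest and the highest macrophage library were both TR-AΦ of PM2.5 mice at 4 weeks, which gave that group the widest spread (31533 ± 22992, SD, n = 3), while the FA mice of the same time were close together (34941 ± 3325, SD, n = 3).

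In BM-AΦ at 32 weeks, mt-Ti was at 37637, 30062 and 51099 FPKM under FA and at 19505, 34008 and 29248 under PM2.5. The exposure groups overlapped. The BM-AΦ libraries ran from 19505 to 51099 FPKM and reached lower than the TR-AΦ libraries of 32 weeks (30735 to 52107).

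In CD45.2 monocytes at 4 weeks, the values were 27406, 30715 and 17453 FPKM under FA and 31673, 32650 and 26542 under PM2.5. At 32 weeks they were 20729, 9529 and 26099 under FA and 26641, 26173 and 10696 under PM2.5, which included the lowest library of the series. In CD45.1 monocytes at 32 weeks they were 39276, 31628 and 25614 under FA and 17263, 48305 and 38918 under PM2.5. The 6 CD45.2 monocyte libraries of 32 weeks lay at or below 26641 FPKM, whereas 4 of the 6 CD45.1 monocyte libraries lay above that value.

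Ordered by mean, BM-AΦ of FA mice at 32 weeks came first (39599 ± 10655 FPKM, SD, n = 3), followed by TR-AΦ of PM2.5 and of FA mice at 32 weeks, TR-AΦ of FA mice at 4 weeks, and the PM2.5 and FA groups of CD45.1 monocytes. TR-AΦ of PM2.5 mice at 4 weeks, CD45.2 monocytes of PM2.5 mice at 4 weeks, BM-AΦ of PM2.5 mice and CD45.2 monocytes of FA mice at 4 weeks followed. CD45.2 monocytes at 32 weeks came last, with 21170 ± 9074 under PM2.5 and 18785 ± 8454 under FA (SD, n = 3 each). For none of the 11 neighbouring pairs in this order did the gap between means exceed the larger of the 2 SDs. The within-group coefficient of variation of mt-Ti was 35.6%, against a median of 25.5% over 10442 genes above 0 in every library. Of the other 10 such genes of at most 80 bases, 5 had a lower value.

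**Figure D2:**
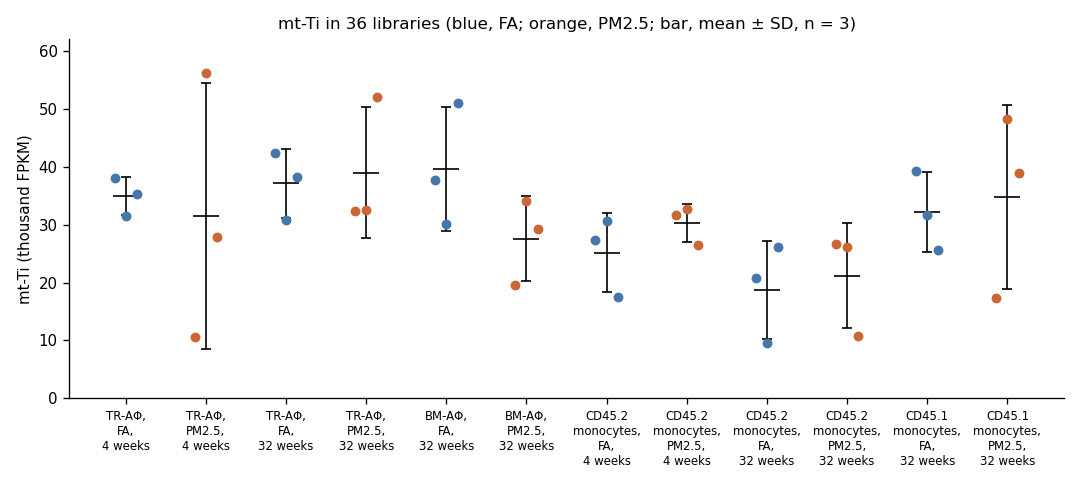
mt-Ti in FPKM in each of the 36 libraries by group, with the mean and SD of the 3 mice. The 6 CD45.2 monocyte libraries of 32 weeks lie between 9529 and 26641, below the 6 TR-AΦ libraries of that time, which lie between 30735 and 52107.

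mt-Tq and mt-Tl2 were much less abundant and were listed at 0 in many libraries. mt-Tq was above 0 in 26 of 36 libraries, from 963 to 11456 FPKM, and mt-Tl2 in 23, from 954 to 7103. Both were above 0 in 14 libraries and both at 0 in 1. Where it was above 0, mt-Tq came to 2.27 to 107% of mt-Ti in the same library (median 14.4%), and mt-Tl2 to 3.26 to 60.4% (median 12.05%). mt-Ti was the highest of the 3 in 35 of 36 libraries. The exception was a CD45.2 monocyte library of a PM2.5 mouse at 32 weeks, in which mt-Tq was at 11456 and mt-Ti at 10696.

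In TR-AΦ at 4 weeks, mt-Tq was at 5311, 0 and 0 FPKM under FA and at 3634, 9499 and 8683 under PM2.5. At 32 weeks it was at 963, 5993 and 0 under FA and at 5610, 4458 and 0 under PM2.5. BM-AΦ had 1108, 3085 and 6154 under FA and 0, 5773 and 2192 under PM2.5. Among these macrophage groups only TR-AΦ of PM2.5 mice at 4 weeks and BM-AΦ of FA mice had the glutamine tRNA gene above 0 in all 3 libraries.

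CD45.2 monocytes had mt-Tq at 4064, 10428 and 4407 FPKM under FA and at 2678, 0 and 0 under PM2.5 at 4 weeks. At 32 weeks they had 0, 2190 and 5424 under FA and 3568, 2627 and 11456 under PM2.5. CD45.1 monocytes had 0, 2152 and 0 under FA and 5451, 4815 and 2373 under PM2.5. In CD45.2 monocytes at 4 weeks mt-Tq was above 0 in 3 FA libraries and 1 PM2.5 library. In CD45.1 monocytes it was above 0 in 1 FA library and 3 PM2.5 libraries. mt-Tq was above 0 in 13 of 18 libraries of each cell type.

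mt-Tl2 was at 0, 1534 and 4677 FPKM under FA and at 6409, 1871 and 0 under PM2.5 in TR-AΦ at 4 weeks, and at 2219, 2112 and 2737 under FA and 0, 7103 and 0 under PM2.5 at 32 weeks. BM-AΦ had 0, 3694 and 6156 under FA and 3915, 2362 and 954 under PM2.5. The leucine tRNA gene was above 0 in 13 of 18 macrophage libraries, and in all 3 libraries of FA mice at 32 weeks in TR-AΦ and of PM2.5 mice in BM-AΦ.

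In CD45.2 monocytes, mt-Tl2 was listed at 0 in all 3 FA libraries of 4 weeks and was at 0, 5757 and 3070 FPKM in those of PM2.5 mice. At 32 weeks it was at 3214, 2701 and 0 under FA and at 2019, 3300 and 5623 under PM2.5. CD45.1 monocytes had 2277, 0 and 3316 under FA and 0, 2033 and 0 under PM2.5. It was above 0 in 10 of the 18 monocyte libraries.

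**Figure D3:**
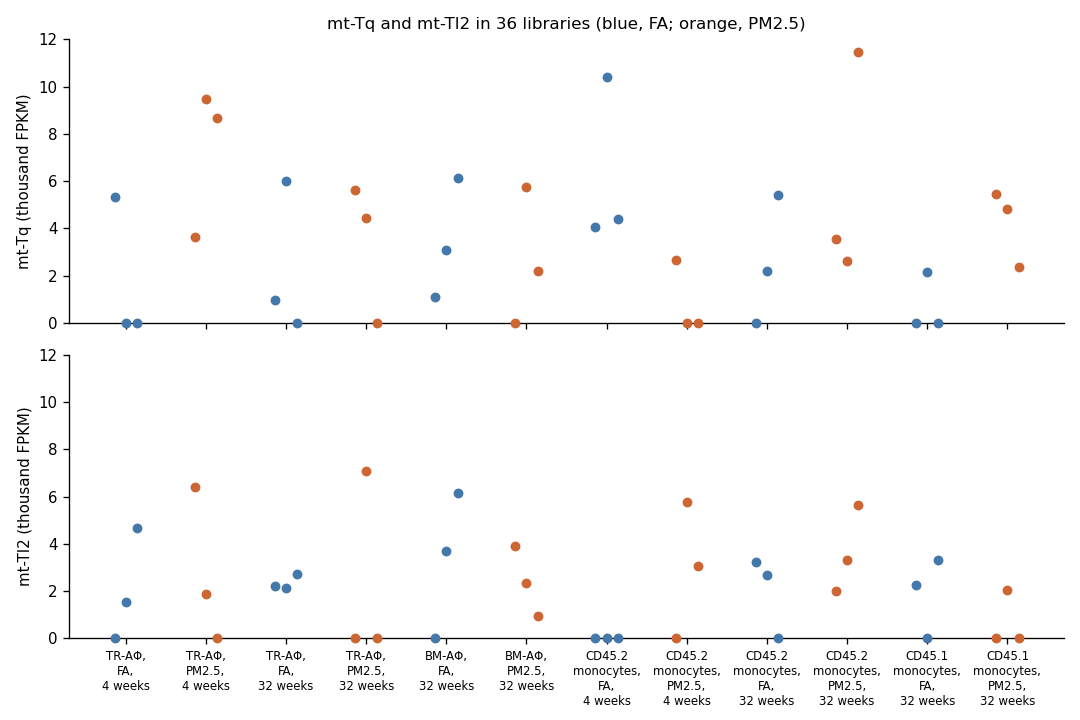
mt-Tq and mt-Tl2 in FPKM in each of the 36 libraries by group, 3 mice per group. For each gene, values at 0 stand in most groups beside values above 0. mt-Tq is above 0 in 26 libraries and reaches 11456 FPKM, and mt-Tl2 is above 0 in 23 and reaches 7103.

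Both protein-coding genes were listed at 0 in most libraries. mt-Atp6 was above 0 in 6 of 36 libraries and mt-Nd6 in 6, both in 3 libraries and either in 9. mt-Atp6 was at 0.852 and 1.39 FPKM in FA TR-AΦ of 4 weeks, 1.64 in FA TR-AΦ of 32 weeks, 0.616 in PM2.5 BM-AΦ, and 0.804 and 1.28 in FA and PM2.5 CD45.2 monocytes of 32 weeks. mt-Nd6 was at 1.21 in FA TR-AΦ of 4 weeks, 5.27 in FA and 1.73 in PM2.5 TR-AΦ of 32 weeks, 1.76 in FA BM-AΦ, and 1.60 and 2.34 in FA and PM2.5 CD45.2 monocytes of 32 weeks. Both were listed at 0 in all 6 CD45.1 monocyte libraries and in all 6 CD45.2 monocyte libraries of 4 weeks. An exact 0 in such a table can also be an estimate that failed. Neither gene reached the mean of 1 FPKM required for testing in a model of all macrophages, all monocytes or both. Without that filter both were tested and limma called 0 of 2 in each comparison, with 0 of 2 at an unadjusted p under 0.05.

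Reads of mt-Atp6 have another possible place in the genome. A stretch of mitochondrial DNA lies on the minus strand of chromosome 1 and is annotated as a row of pseudogenes, among them Gm10925 at chr1:24613974-24614651. Over its whole length of 678 bases, Gm10925 was identical to mt-Atp6 (678 of 678 bases). Gm28661 matched mt-Co2 (681 of 681), Gm28437 matched mt-Co3 (783 of 783), Gm28438 matched mt-Nd3 (342 of 342 aligned), Gm28439 matched mt-Nd4 (876 of 876) and Gm29216 matched mt-Co1 (482 of 483). Reads from such stretches cannot be assigned to the nuclear or the mitochondrial copy, so the values of both are uncertain.

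Gm10925 was at 9.65 to 34.2 FPKM (median 18.4) and above mt-Atp6 in 36 of 36 libraries. The copies of genes not analysed here were also present, with Gm28661 at 3.75 to 23.6, Gm29216 at 3.98 to 38.1, Gm28437 at 2.17 to 22.04 and Gm28439 at 2.53 to 9.24. These 5 were above 0 in all 36 libraries. Gm28438, the shortest, was listed at 0 in 12 libraries, which included all 6 of CD45.1 monocytes and none of the 6 of BM-AΦ (3.24 to 12.6 FPKM).

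**Figure D4:**
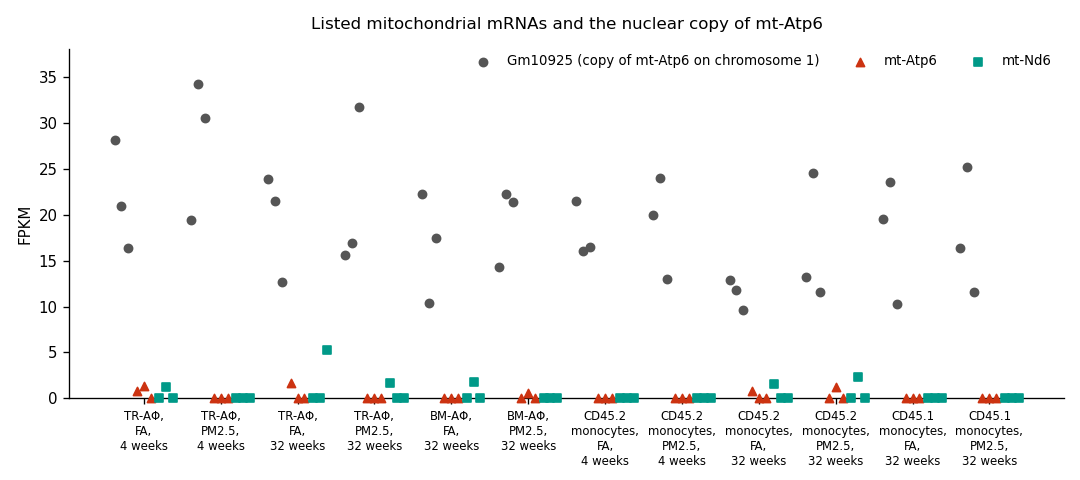
FPKM of mt-Atp6, mt-Nd6 and the nuclear copy Gm10925 in each of the 36 libraries by group. Gm10925 lies between 9.65 and 34.2 and above mt-Atp6 in every library, while mt-Atp6 and mt-Nd6 are at 0 in 30 libraries each.

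The effect of the exposure was asked in each cell type and time, with limma on log2(FPKM + 1) and Benjamini-Hochberg adjustment over all genes tested. Fold changes are on that scale. The limma p-values set a difference against the spread between libraries within groups, pooled over all groups of the model. mt-Ti differed between PM2.5 and FA by -0.45 (SE 0.48) in TR-AΦ at 4 weeks, 0.05 at 32 weeks and -0.53 in BM-AΦ (SE 0.48). In monocytes it differed by 0.30 (SE 0.47) in CD45.2 cells at 4 weeks, 0.18 at 32 weeks and 0.01 in CD45.1 cells. These differences were about the size of their SE or below it, and each limma adjusted p was 1. The exact permutation test, two-sided, gave p from 0.2 to 1 for the 6, and with 3 against 3 it cannot go below 0.1.

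None of the 3 tRNA genes passed in any of the 6 exposure comparisons. The share of all genes called was 0.0079% in TR-AΦ at 4 weeks, 0% at 32 weeks and 0.0158% in BM-AΦ, and 0.00778%, 0% and 0% in CD45.2 monocytes at 4 and 32 weeks and in CD45.1 monocytes. At an unadjusted limma p under 0.05, the count was 0 of 3 in the macrophage comparisons and in CD45.2 monocytes at 32 weeks. mt-Tq alone was below that level in CD45.2 monocytes at 4 weeks (limma adjusted p = 1) and in CD45.1 monocytes (limma adjusted p = 0.946). Both of those rest on groups with libraries at 0, so no fold is given. The exposure difference of mt-Ti changed by 0.50 (SE 0.68, limma adjusted p = 1) from 4 to 32 weeks in TR-AΦ and differed by -0.57 (SE 0.68, limma adjusted p = 1) between BM-AΦ and TR-AΦ. No tRNA gene passed either test, where 0.0079% and 0.0158% of genes did, and 0 of 3 had an unadjusted p under 0.05.

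Time was compared within exposure groups. It joins the length of exposure and the age of the mice, which cannot be told apart. From 4 to 32 weeks mt-Ti moved by 0.08 under FA and 0.58 under PM2.5 in TR-AΦ (SE 0.48, limma adjusted p = 0.987 and 0.622). In CD45.2 monocytes it moved by -0.50 and -0.63 (SE 0.47, limma adjusted p = 0.608 and 0.570). None of the 3 tRNA genes passed in the 4 comparisons, in which 0.782%, 1.05%, 7.21% and 2.42% of all genes were called. At an unadjusted limma p under 0.05 there were 0, 0, 0 and 1 of 3. The last was mt-Tq in monocytes of PM2.5 mice (limma adjusted p = 0.242). Among the nuclear copies, Gm28439 fell by 1.11 on the log2 scale (SE 0.24, limma adjusted p = 0.0382) in TR-AΦ of PM2.5 mice, from 6.51, 9.24 and 8.71 FPKM at 4 weeks to 2.53, 3.79 and 3.42. In the FA mice its difference was -0.66 (limma adjusted p = 0.262). The call in PM2.5 mice was kept in 4 of 9 other settings and in 1 of 6 fits that left out a library.

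Origin was compared at 32 weeks. mt-Ti differed by -0.21 (SE 0.34, limma adjusted p = 0.966) between BM-AΦ and TR-AΦ, whose 6 libraries each overlapped (exact permutation p = 0.361). Between CD45.1 and CD45.2 monocytes it differed by 0.79 (SE 0.34), with geometric means of 31792 and 18372 FPKM. This had an unadjusted limma p of 0.0332 and an adjusted p of 0.449, and the exact permutation p was 0.0649. None of the 3 tRNA genes passed in either comparison, against 0.316% and 0.669% of all genes, and at an unadjusted limma p under 0.05 there were 0 and 1 of 3.

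The cell types differed in mt-Ti at 32 weeks among CD45.2 cells. Its geometric mean was 37394 FPKM in TR-AΦ and 18372 in CD45.2 monocytes, a log2 difference of 1.03 (SE 0.34, limma adjusted p = 0.0148). The 6 TR-AΦ libraries (30735 to 52107) did not overlap the 6 monocyte libraries (9529 to 26641), and the exact permutation test, two-sided, gave p = 0.00216, or 0.0325 after Benjamini-Hochberg adjustment over 15 comparisons. mt-Ti was the 1 of 3 tRNA genes called. In this comparison 47.3% of all genes were called, 23.6% as higher in TR-AΦ, and 26.9% did not overlap, so such a call was common. Of the genes tested, 39.2% had a smaller p and 88.6% a lower fold change than mt-Ti.

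The same contrast was not called at 4 weeks or for the other origin. At 4 weeks mt-Ti differed by 0.13 (SE 0.34, limma adjusted p = 0.791), with geometric means of 29803 FPKM in TR-AΦ and 27181 in CD45.2 monocytes. Between BM-AΦ and CD45.1 monocytes at 32 weeks it differed by 0.02 (SE 0.34, limma adjusted p = 0.989). In these, 0 of 3 tRNA genes passed, where 48.2% and 50.9% of all genes did, and 0 of 3 had an unadjusted limma p under 0.05. The difference between the 32-week and the 4-week contrast of CD45.2 cells was itself 0.89 (SE 0.48, limma adjusted p = 0.313), and 0 of 3 tRNA genes passed that test at either level, where 7.88% of all genes were called. A difference between the times was therefore not shown for mt-Ti.

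The call at 32 weeks depended on single monocyte libraries and on the filter. Leaving out either of the 2 lowest CD45.2 monocyte libraries, replicate 1 of FA or replicate 2 of PM2.5, gave 0.81 with a limma adjusted p of 0.0591 or 0.0588. Without the filter on low values the difference was the same and the limma adjusted p was 0.125. In bulk RNA, fewer cells of a type and less RNA per cell cannot be told apart.

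Other measures of these groups are given as ranges and were not followed library by library. Of the 10 alveolar macrophage markers, 0 were at 0 throughout the CD45.2 monocyte libraries of 32 weeks, where their sum was 259 to 1457 FPKM (median 515), against 132 to 271 (median 219) at 4 weeks. The 10 monocyte markers summed to 1945 to 4612 in these libraries and to 4342 to 5862 at 4 weeks. The 5 red cell markers summed to at most 85.7 in CD45.2 monocytes and 57.3 in TR-AΦ at 32 weeks. The nuclear-retained RNAs Malat1 and Neat1 summed to 3031 to 4125 in these monocytes and to 1608 to 2715 in TR-AΦ. The FPKM sum was 2320650 to 2843850 in these monocytes and 1839580 to 2444940 in TR-AΦ. The part of these differences in the mt-Ti result was not tested. Of the other 10 genes of at most 80 bases above 0 in every library, 3 were called at 32 weeks, 1 higher and 2 lower in TR-AΦ, with a median difference of -0.19.

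Other scalings shifted the median of all genes between cell types by up to 0.23 at 32 weeks, 0.37 at 4 weeks and 0.50 for BM-AΦ against CD45.1 monocytes. With them mt-Ti differed by 1.21 to 1.31 at 32 weeks and was called in each. At 4 weeks it differed by 0.46 to 0.65 and in the BM-AΦ contrast by 0.42 to 0.65, with no call.

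**Figure D5:**
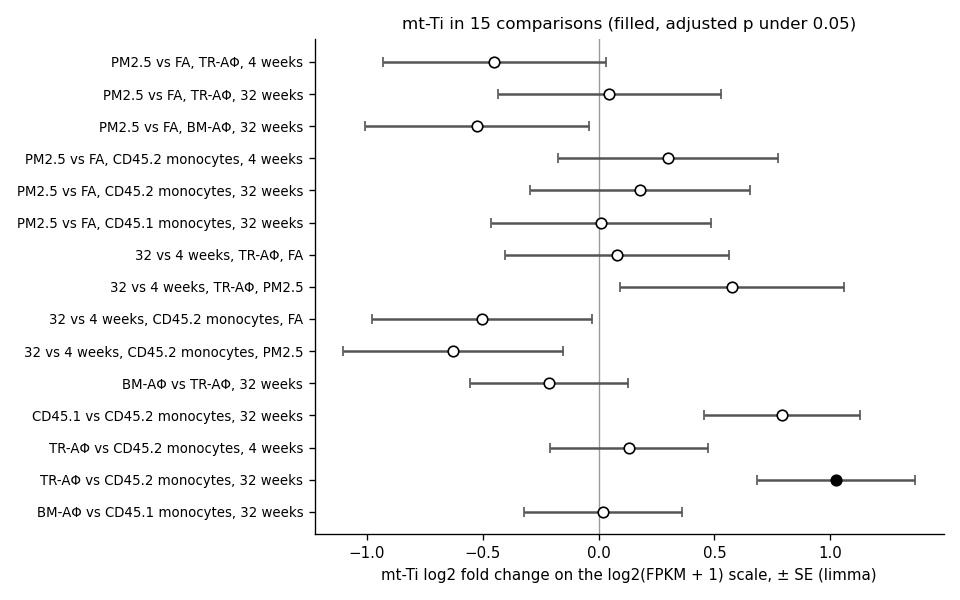
log2 fold change of mt-Ti with its SE in each of the 15 differences, from limma on log2(FPKM + 1). Among these, TR-AΦ against CD45.2 monocytes at 32 weeks (1.03) is the comparison past the adjusted threshold of 0.05. The 3 interactions are not shown.

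The nuclear partners of these genes were mostly higher in macrophages where they were called. Of 68 tested nuclear-encoded subunits of complexes I, III, IV and V, 22 were called between TR-AΦ and CD45.2 monocytes at 4 weeks, 21 higher and 1 lower in TR-AΦ. At 32 weeks 31 were called, all 31 higher. Between BM-AΦ and CD45.1 monocytes 37 were called, 35 higher and 2 lower. Called in either direction were 32.4%, 45.6% and 54.4% of the subunits, which is at or below the 48.2% and 47.3% of all genes at 4 and 32 weeks and near the 50.9% of the last contrast. As higher in macrophages, 22.6%, 23.6% and 27.1% of all genes were called. The median difference over the subunits was 0.27, 0.40 and 0.43, against -0.02, 0.00 and 0.03 over all genes. Scaling to the library sum raised the 3 counts to 45, 46 and 57. The same scaling moved the share of higher genes among all calls from 47.0% to 67.0% at 4 weeks, from 49.9% to 61.8% at 32 weeks and from 53.2% to 74.8% in the BM-AΦ contrast.

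By complex, at 32 weeks 17 of 35 subunits of complex I, 4 of 9 of complex III, 3 of 10 of complex IV and 7 of 14 of complex V were called in the contrast of TR-AΦ with CD45.2 monocytes, where 47.3% of all genes were. Ndufab1, the mitochondrial acyl carrier protein that is also a complex I subunit, was higher by 1.44 (SE 0.22, limma adjusted p = 4.09e-06). Cox5a, a subunit of cytochrome c oxidase, was higher by 1.26 (limma adjusted p = 1.87e-06). Atp5g3, which codes for the c-ring of ATP synthase, was higher by 0.92 (limma adjusted p = 2.96e-08). The complex I subunit Ndufb11 went the other way at 4 weeks (-0.45, limma adjusted p = 0.0269) and in the BM-AΦ contrast (-0.48, limma adjusted p = 0.0178), as did Ndufa6 in the latter (-0.49, limma adjusted p = 0.0118). Scaling to the library sum left 0 subunits called as lower.

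Genes that transcribe, replicate and process mitochondrial nucleic acid were counted in the same contrasts. Of 29 tested, 12 were called at 4 weeks (10 higher, 2 lower), 13 at 32 weeks (12 higher, 1 lower) and 15 between BM-AΦ and CD45.1 monocytes (13 higher, 2 lower), which are 41.4%, 44.8% and 51.7% of the list and near the share of all genes. Rexo2, the oligoribonuclease that clears short RNA in mitochondria, was higher by 1.62, 1.79 and 2.205 in the 3 contrasts (limma adjusted p = 1.89e-10, 3.21e-11 and 5.26e-13). Trmt10c, a subunit of mitochondrial RNase P, which cuts the 5′ end of tRNAs, was higher by 0.93 at 32 weeks (limma adjusted p = 0.000680), and Elac2, which cuts the 3′ end, by 0.74 (limma adjusted p = 8.32e-05). Polg, the catalytic subunit of the mitochondrial DNA polymerase, was lower by -0.68, -0.89 and -0.86 (limma adjusted p = 3.06e-06, 3.35e-08 and 7.02e-08). Under the 3 other scalings its difference at 4 weeks ran from -0.71 to -0.25, with 1 of the 3 not called (highest adjusted p 0.109).

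Of the 5 regulators of mitochondrial biogenesis tested, 3 were called in each contrast, where 48.2%, 47.3% and 50.9% of all genes were. Ppargc1b, a coactivator of oxidative metabolism, was higher in macrophages by 1.77, 0.94 and 1.57. Nrf1, a transcription factor for respiratory genes, was called as lower by -0.58, -0.39 and -0.28, but 2 of 3 other scalings ended each of these calls in limma and turned the BM-AΦ difference positive, to at most 0.22.

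Within a cell type these nuclear lists did not move past the threshold. limma called 0 of the respiratory chain subunits and 0 of the gene expression factors for exposure, time or origin, where between 0% and 7.21% of all genes were called. The largest count at an unadjusted p under 0.05 was 17 of 69 subunits, for time in TR-AΦ of PM2.5 mice, where the smallest limma adjusted p was 0.0778 and 1928 of all 12665 genes were below that unadjusted level.

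The nuclear copies were also compared between cell types. At 4 and at 32 weeks limma called 0 of the 6 between TR-AΦ and CD45.2 monocytes, and 0 of the 6 had an unadjusted p under 0.05, where 48.2% and 47.3% of all genes were called. Scaling to the library sum or to the sum over long nuclear genes called 2 and 4 of them at 4 weeks and 1 and 1 at 32 weeks. Between BM-AΦ and CD45.1 monocytes 2 of the 6 were called, where 50.9% of all genes were. Gm28437, the mt-Co3 copy, was higher in BM-AΦ by 0.73 (SE 0.26, limma adjusted p = 0.0194). Gm28438, the mt-Nd3 copy, was listed at 0 in all 6 CD45.1 monocyte libraries and above 0 in all 6 of BM-AΦ (limma adjusted p = 0.00101). Leaving out replicate 2 of the FA CD45.1 monocytes ended the call of Gm28437 (highest adjusted p 0.0849), while that of Gm28438 was kept in 12 of 12 such fits.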

How the data were processed

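RNA of sorted alveolar macrophages and monocytes was sequenced in 36 libraries, with 3 mice behind each of 12 groups. The authors aligned reads to mm10 with STAR and made the deposited FPKM values per gene with Cufflinks and Cuffdiff, with GENCODE genes. Read counts and depth were not used here, FPKM keeps no depth, and the precision of single values is unknown. All columns of the table that hold a library were used (0 unused). Members were found by symbol, and all 5 carry an identifier and version of GENCODE M21. The members and the gene lists were chosen with earlier results of these data known. The tests had been laid out for 13 protein-coding genes, of which 2 were listed.

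Tests used limma 3.58.1 in R 4.3.3 with a variance trend on log2(FPKM + 1), keeping genes that averaged 1 FPKM or more in the model. The model held the 18 macrophage libraries (12665 genes tested), the 18 monocyte libraries (12856) or, between cell types, all 36 (13307). P-values were Benjamini-Hochberg adjusted over all genes tested, threshold 0.05, in 15 differences and 3 interactions. Exact permutation tests of log2 values, two-sided, used scipy 1.17.1. Nuclear copies were aligned with biopython 1.88 (match 1, mismatch -2, gap opening -5). The script was tested on simulated data with known changes. A log2 change of 1 was called in 27 of 50 genes for PM2.5 against FA in TR-AΦ at 4 weeks. For TR-AΦ against CD45.2 monocytes at 32 weeks it was called in 38 of 50. The changed genes were drawn at random, kept their own spread and stood beside planted changes of up to 4. In the deposited values the first comparison called 1 of 12665 genes. mt-Ti varied more within groups (35.6%) than the median gene above 0 in every library (25.5%). These rates are therefore not the rate at which such a change of mt-Ti would be called. All mitochondrial genes listed are named, and the nuclear genes named come from the 3 strongest called changes of a list in either direction, with Ndufb7 and Tbrg4 named for their interaction after their values were seen.

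The alternatives were pseudocounts of 0.1 and 1000, no filter, quantile normalization, scaling to the library sum or to the sum over nuclear genes with a locus of at least 300 bases, only the libraries compared, no trend, a replicate block and leaving out each library. Those for mt-Ti, the nuclear lists and the named nuclear genes were chosen after seeing the data.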

Additional observations from a re-analysis of the deposited data

Results flagged for a closer look

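Ndufb7 and Tbrg4, nuclear genes with products in mitochondria, differed in their cell type contrast between the times by a test of the difference itself. Ndufb7, a subunit of complex I, differed between TR-AΦ and CD45.2 monocytes by -0.10 (limma adjusted p = 0.616) at 4 weeks and by 0.66 (adjusted p = 0.000686) at 32 weeks, an interaction of 0.77 (SE 0.22, limma adjusted p = 0.0255). Tbrg4, a factor that stabilizes mitochondrial mRNA, differed by -0.02 (adjusted p = 0.938) and 0.62 (adjusted p = 0.000641), an interaction of 0.64 (SE 0.20, limma adjusted p = 0.0460). They were 1 of 68 respiratory chain subunits and 1 of 29 gene expression factors, where 7.88% of all genes passed this test. Both interactions were sensitive to processing. Under the 3 other scalings Ndufb7 was called in 0 (0.54 to 0.63) and Tbrg4 in 1 (0.44 to 0.68), and on leaving out 1 of the 24 libraries Ndufb7 was called in 19 fits and Tbrg4 in 8 (highest adjusted p 0.0610 and 0.0979).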

How the results depend on the processing

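The count of tRNA genes called kept its value in 161 of 162 other settings and 166 of 168 fits that left out a library. The exceptions were in TR-AΦ against CD45.2 monocytes at 32 weeks, where it was 0 without the filter on low values and ranged from 0 to 1 on leaving out a library. The cause was not tested. In the other comparisons the count was 0. At most 0.0158% of all genes were called for exposure, so a count kept at 0 there says little about stability. The protein-coding genes passed the filter in no model of all macrophages, all monocytes or both, so their count of 0 there says nothing about stability. Both were tested without the filter. mt-Nd6 was also tested when only the libraries compared were fitted, as for exposure in TR-AΦ at 32 weeks (mean 1.17 FPKM). The count stayed at 0 in these too. The sign of mt-Ti differences that were not called was stable in some comparisons and not in others. It reversed in 5 of 162 other settings and 18 of 168 fits that left out a library. Leaving out a library never reversed it for PM2.5 in BM-AΦ (-0.71 to -0.29) or between CD45.1 and CD45.2 monocytes (0.57 to 1.01). With scaling to the library sum and to long nuclear genes, the PM2.5 difference became -0.00663 and -0.00333 in TR-AΦ at 32 weeks. In CD45.1 monocytes it became -0.054, -0.10 and -0.11 with quantile normalization and these scalings. On leaving out a library, the PM2.5 differences ranged from -1.02 to 0.18 in TR-AΦ at 4 weeks, -0.18 to 0.16 at 32 weeks, -0.25 to 0.61 in CD45.2 monocytes at 32 weeks and -0.29 to 0.45 in CD45.1 monocytes. The time differences ranged from -0.022 to 0.21 (FA) and -0.057 to 1.14 (PM2.5) in TR-AΦ, the cell type differences from -0.15 to 0.45 at 4 weeks and -0.20 to 0.17 for BM-AΦ, and the interaction of exposure and time from -0.14 to 1.07. The called difference of TR-AΦ and CD45.2 monocytes ranged from 0.81 to 1.17. The mean share of mt-Ti in the FPKM sum, 0.739 to 1.85% over the groups, became 1.07 to 2.82% over loci of at least 300 bases.

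Same-numbered libraries correlated in their deviations by -0.087 to 0.209, and every pair exceeded 0.1 in 0 comparisons, so the number was not taken as a pairing. Between exposures all 3 pairs correlated best with their own number in CD45.2 monocytes at 4 weeks and in CD45.1 monocytes, a hint from the data and not the design. Within an exposure, where libraries could share an animal, the same held for BM-AΦ with TR-AΦ under FA and CD45.1 with CD45.2 monocytes under PM2.5. It also held for TR-AΦ with CD45.2 monocytes under FA at 4 weeks and under PM2.5 at 32 weeks (r at most 0.0685). The other such sets did not show it, and TR-AΦ of PM2.5 mice with CD45.2 monocytes of FA mice at 4 weeks did. Shared animals could not be settled from these values. A replicate block left the count of tRNA genes called at 1 in TR-AΦ against CD45.2 monocytes at 32 weeks (adjusted p = 0.0186) and at 0 elsewhere, while calls over all genes rose by up to 3.07 times, from 133 to 408 for time in TR-AΦ of PM2.5 mice. Nuclear respiratory chain counts of 22, 31 and 37 became 54, 49 and 59 with scaling to long nuclear genes, and those of gene expression factors, 12, 13 and 15, became 21, 18 and 25. Depth is unknown, so a value at 0 has no limit.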
